A study of Caenorhabditis elegans with 9 samples.

Results

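A set of 5 Caenorhabditis elegans genes of osmolyte supply was followed through RNA recovered with the GFP-tagged protein HZL-1 from dauer larvae: the myo-inositol transporter genes hmit-1.1, hmit-1.2 and hmit-1.3 and the glycerol-3-phosphate dehydrogenase genes gpdh-1 and gpdh-2. They are 5 of 46904 genes in the deposited tables and were taken by name. The set was selected on the measured level of hmit-1.1, which is high in the aak(0) libraries with tagged HZL-1. The levels of hmit-1.1 are therefore given as a description with no test. The other 4 were taken for their function, to ask whether they follow hmit-1.1, and are reported from a fit over all genes.

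Dauer larvae were grown at 25 °C and collected after 96 hours, on day 2 of dauer. All carried a daf-2 mutation (the insulin/IGF receptor gene), and animals marked aak(0) were also null for both aak-1 and aak-2, genes for the catalytic subunits of AMP-activated protein kinase (AMPK). In 3 groups the transgene was driven by the nhx-2 promoter, which is active in the intestine: tagged HZL-1 in daf-2; aak(0); hzl-1 animals (3 libraries), tagged HZL-1 in daf-2; hzl-1 animals (3 libraries), and GFP alone in daf-2; aak(0) animals (1 library), whose label names no hzl-1 mutation. A further 2 groups of 1 library each carried HZL-1::GFP under the hzl-1 promoter, in daf-2; aak(0); hzl-1 and in daf-2; hzl-1. The transgenes are marked Ex, extrachromosomal arrays, which are not kept by every cell or animal, and the labels give neither the line nor whether replicates were separate cultures. P-values therefore measure only the spread between these libraries, which may be technical.

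A hypertonic environment draws water from cells, and cells answer by accumulating small compatible solutes. In the worm the main one is glycerol, made through glycerol 3-phosphate, and GPDH-1 and GPDH-2 form that intermediate from a glycolytic one. Myo-inositol is another such solute. It is taken up with protons by transporters of the HMIT type, of which HMIT-1.1 is known from the intestine and HMIT-1.2 from glia and the excretory canal.

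Libraries differed in ways that bear on all that follows. Gene reads totalled between 7151604 and 17397251 in the 6 HZL-1 libraries of the intestinal set, 24035823 in the endogenous library labelled aak(0) and 58132094 in the one labelled daf-2, of which ribosomal RNA took between 29.96% and 89.82%. Aak(0) replicate 1, daf-2 replicate 1 and daf-2 replicate 3 had 3439, 5135 and 6076 genes above 0 FPKM (fragments scaled to transcript length and library size), against 11510 to 18666 in the other 4. The targeted gene aak-2 was at most 3.36 FPKM in the intestinal HZL-1 libraries of aak(0) and 5.31 to 7.90 in those of daf-2, but by recovered reads the groups overlapped, at 7.12 to 21.4 reads scaled to a gene-read total of 1000000 (CPM) in aak(0) and 17.8 to 38.3 in daf-2. Aak(0) replicate 1, listed at 0 FPKM of aak-2, held 153 of its reads. The gene went against the labels in the GFP library, labelled aak(0), at 8.32 FPKM, and in the endogenous pair, with 92248 reads in the library labelled aak(0) and 3937 in the one labelled daf-2. The second targeted gene, aak-1, was above 0 FPKM in aak(0) replicates 2 and 3 (2.19 and 2.66) and at 0, 2.85 and 6.41 in daf-2. It too went against the labels in the GFP library, at 4.43 FPKM. In the endogenous pair it was at 26.5 CPM in the library labelled aak(0) and 19.8 in the one labelled daf-2. The endogenous library labelled daf-2 also held 0 reads of hzl-1, the gene of the tagged protein, against 11527 in its partner. Reads over a whole gene can come from outside a deleted part, so groups are named here as labelled, and a direction drawn from the endogenous pair or the GFP library rests on those labels. There was no input RNA, so abundance and recovery are not separated, and in whole animals fewer cells of a type and less RNA per cell cannot be told apart.

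Transcripts of hmit-1.1 (WBGene00013073, WBcel235 chromosome V, 18516789 to 18523875) stood at 129, 523 and 473 FPKM for replicates 1 to 3 of aak(0). All 3 daf-2 libraries list the gene at 0 FPKM, and GFP alone at 0.35 FPKM. All aak(0) libraries with HZL-1 thus stood above every other library of the intestinal set, the GFP library labelled aak(0) included. Among them replicate 1 was the lowest. By FPKM hmit-1.1 took place 137, 71 and 66 among all genes in the aak(0) libraries, and place 14703 with GFP. The whole reads behind these values, recovered from the authors' normalized table, were 4840, 40018 and 36848 for aak(0) replicates 1 to 3 and 0, 0 and 141 for those of daf-2. The 141 reads of daf-2 replicate 3 (12.03 CPM) show that a listed 0 FPKM is not an absence there. Mean CPM was 1799 ± 985 in aak(0) and 4.01 ± 6.94 in daf-2 (SD, n = 3 each), a ratio of 449, and it was at least 8893-fold without daf-2 replicate 3, where the daf-2 side is a floor of 3 reads per library.

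**Figure D1:**
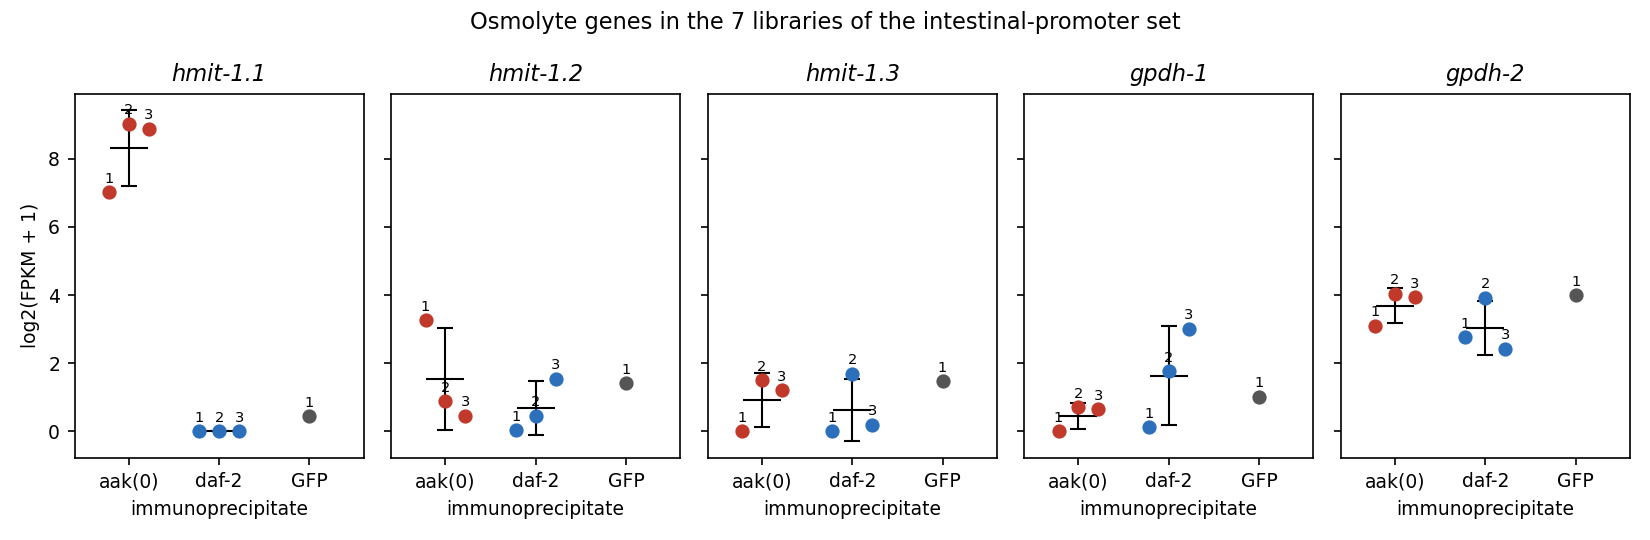
FPKM of each gene in the 7 libraries of the intestinal set, as log2(FPKM + 1); points are libraries with their replicate number, black bars mean ± SD of the 3 libraries of a group. The 3 aak(0) points of hmit-1.1 (129, 523 and 473 FPKM) lie apart from its daf-2 and GFP points, while the groups of the other genes overlap.

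The other transporter genes were at low levels. hmit-1.2 (WBGene00013074, V, 18524760 to 18529156), which lies 884 bases from hmit-1.1, gave 8.55, 0.84 and 0.37 FPKM for aak(0), 0.02, 0.37 and 1.92 for daf-2 and 1.66 for GFP. One library, aak(0) replicate 1, held its high value, and the other aak(0) libraries lay within the range of daf-2. Its mean of 3.25 ± 4.59 FPKM in aak(0) against 0.77 ± 1.01 in daf-2 (SD, n = 3 each) gave a difference of 0.85 ± 0.93 on the log2(FPKM + 1) scale (SE; limma adjusted p = 0.775), and of -0.0093 without aak(0) replicate 1.

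hmit-1.3 (WBGene00010811, III, 3510964 to 3519607), the third transporter gene of the family, gave 0, 1.82 and 1.31 FPKM for aak(0), 0, 2.21 and 0.14 for daf-2 and 1.77 for GFP. The 0 values were in both replicate 1 libraries, which held 0 reads of the gene, and the groups overlapped throughout. The log2 difference was 0.28 ± 0.67 (SE; limma adjusted p = 0.922), and its sign turned to -0.59 with quantile normalization and to -0.47 with edgeR's quasi-likelihood test on recovered reads (adjusted p = 1.00). Against the same background of low values, hmit-1.1 exceeded the next highest of the 5 genes 15.1-fold, 34.1-fold and 33.0-fold in FPKM in aak(0) replicates 1 to 3. It made up 88.9%, 96.6% and 96.6% of the summed FPKM of the 5 genes there, and 1.78% with GFP.

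Of the glycerol genes, gpdh-1, the form known for its strong induction by hypertonic stress (WBGene00009824, I, 14075836 to 14078211), gave 0, 0.63 and 0.56 FPKM for aak(0), 0.08, 2.38 and 7.05 for daf-2 and 1.02 for GFP. Its reads were 0, 22 and 18 in aak(0) and 4, 88 and 229 in daf-2. The aak(0) mean was thus the lower one, opposite to hmit-1.1, yet daf-2 replicate 1 lay among the aak(0) libraries. The log2 difference of aak(0) from daf-2 was -1.18 ± 0.83 (SE; limma adjusted p = 0.717), and under 19 alternatives it lay between -3.60 and -0.31 with adjusted p of at least 0.0737.

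gpdh-2 (WBGene00010778, III, 9854077 to 9859183), the second gene for the enzyme, gave 7.59, 15.35 and 14.35 FPKM for aak(0), 5.76, 14.13 and 4.35 for daf-2 and 14.91 for GFP. It was the most abundant of the 4 other genes in mean FPKM, and its GFP value lay close to its highest HZL-1 values, as did that of hmit-1.3. Means were 12.4 ± 4.22 in aak(0) and 8.08 ± 5.29 in daf-2 (SD, n = 3 each), and the log2 difference was 0.66 ± 0.64 (SE; limma adjusted p = 0.742), near the median of 0.59 over all 9649 genes tested. In daf-2 replicate 1 the deposited tables disagree on this gene: 6 reads stand beside 5.76 FPKM, or 0.96 FPKM per read, against 0.0272 to 0.0904 in the other 5 libraries.

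Between aak(0) and daf-2, 0 of the 4 genes other than hmit-1.1 passed limma at an adjusted p under 0.05, 0 had an unadjusted p under 0.05, and 0 passed edgeR or DESeq2 on recovered reads (DESeq2 gave hmit-1.3 no p). The background was 0.0104% of tested genes called (1 of 9649), so a gene that did not pass is not shown to be unchanged. The called gene was not one of the 5. As hmit-1.1 was chosen on these values, no test outcome is read for it here or against GFP. Of the 4 genes, 0 had all aak(0) libraries above all daf-2 libraries or all below, by FPKM or by CPM of recovered reads. By FPKM 10% of tested genes had the first order and 0.746% the second, and by CPM 8.1% and 0.763% of 11004 genes. hmit-1.1 had the first order on both scales, but it was chosen for its aak(0) level, so nothing is read from that. Passing the minimum of 1 FPKM on average also rested on single libraries: hmit-1.1 passed through its aak(0) libraries, hmit-1.2 would fall to a mean of 0.863 FPKM without aak(0) replicate 1 and gpdh-1 to 0.778 without daf-2 replicate 3, and hmit-1.3 to 0.84 to 0.99 without any 1 of 4 libraries. Whether these 3 genes count among those tested is bound to that filter. Without it their fitted differences of aak(0) from daf-2 were the same. The limma adjusted p was then 0.641 for hmit-1.2, 0.875 for hmit-1.3 and 0.620 for gpdh-1.

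**Figure D2:**
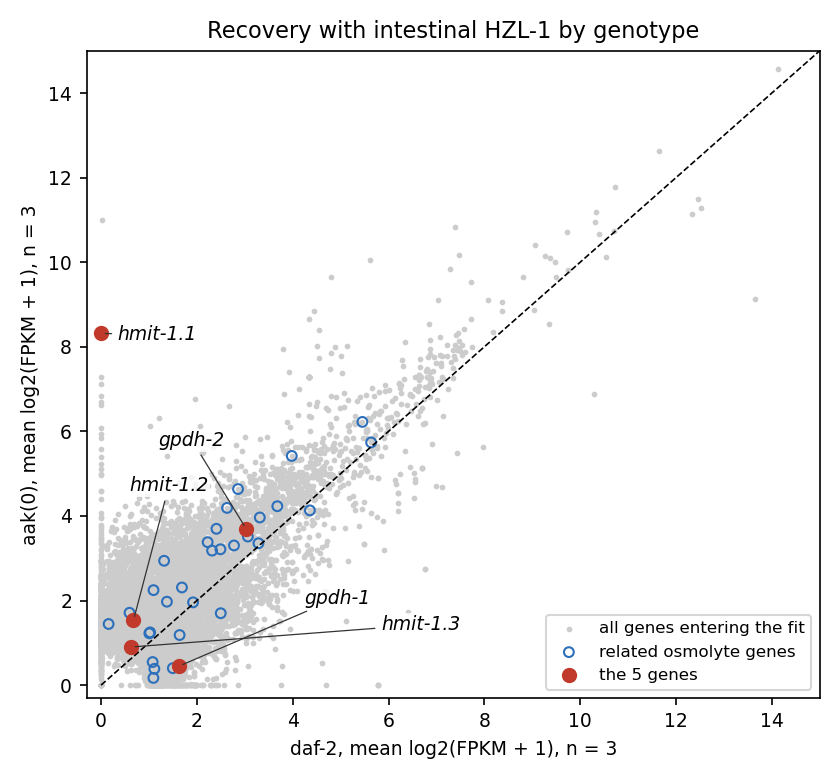
Mean log2(FPKM + 1) of the 3 aak(0) libraries (vertical) against the 3 daf-2 libraries (horizontal) with intestinal HZL-1, for 9649 genes (grey), 30 tested genes of the related lists (blue circles) and the 5 genes (red); the dashed line marks equal values. hmit-1.1 lies at 0 on the daf-2 axis, and the other red points lie within the cloud of all genes.

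Against GFP alone, which shows what the precipitation recovers without HZL-1, the 4 genes were also within the spread. In aak(0) the log2 differences from GFP were 0.12 ± 1.31 for hmit-1.2, -0.57 ± 0.95 for hmit-1.3, -0.57 ± 1.17 for gpdh-1 and -0.30 ± 0.90 for gpdh-2 (SE; limma adjusted p from 0.960 to 0.998), beside an all-gene median of -0.79. In daf-2 they were -0.74 ± 1.31, -0.85 ± 0.95, 0.61 ± 1.17 and -0.96 ± 0.90 in the same order (limma adjusted p from 0.703 to 0.830), beside an all-gene median of -1.28. None of these 8 differences passed limma or had an unadjusted p under 0.05, with 1.07% of tested genes called in each contrast (0.0207% higher and 1.05% lower than GFP in aak(0), and 1.07% lower in daf-2). The GFP library is single and is assumed to vary like the replicated groups, and both contrasts share it. The daf-2 contrast also holds a difference of genotype.

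In the authors' deposited table the log2 fold change, with daf-2 as numerator, was -7.84 for hmit-1.2 (standard error 3.64, unadjusted p = 0.0311, adjusted p = 0.348), -0.32 for hmit-1.3, 4.12 for gpdh-1 and -4.13 for gpdh-2 (adjusted p = 0.970 for each of these 3). Their signs are those of the FPKM means, higher in aak(0) for hmit-1.2, hmit-1.3 and gpdh-2 and lower for gpdh-1. A column of unshrunken values in the authors' deposited table gave the same signs with smaller sizes for 3 of the genes, -1.63 for hmit-1.2, 3.35 for gpdh-1 and -1.62 for gpdh-2, and -0.57 for hmit-1.3.

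The endogenous pair did not enter the intestinal comparison, but hmit-1.1 was chosen with earlier results of these data known. Its level in this pair is therefore also a description. hmit-1.1 had 303233 reads (12616 CPM) in the library labelled aak(0) and 0 of 58132094 gene reads in the one labelled daf-2, which allows up to 0.0516 CPM. The level was thus at least 244462-fold higher in aak(0), and at least 103488-fold with ribosomal RNA left out of the totals. Among protein-coding genes hmit-1.1 took place 2 in that aak(0) library, after argk-1 with 8965110 reads. Among all genes with 0 reads in the library labelled daf-2 it had the most reads in the partner, and hzl-1 came next with 11527. With 1 library per genotype there is no replicate check, and intervals and floors cover counting error only.

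**Figure D3:**
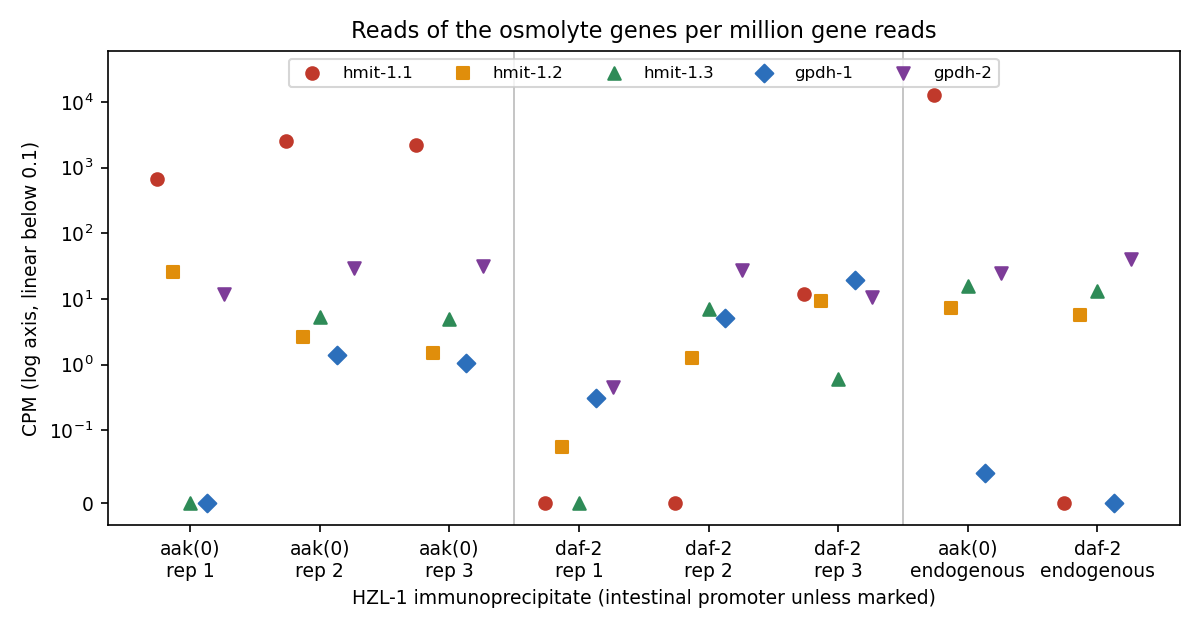
CPM (log axis that is linear below 0.1) of the 5 genes in the 8 HZL-1 libraries with read counts. hmit-1.1 lies between 677 and 12616 CPM in the 4 libraries labelled aak(0) and at 12.03 or 0 CPM in the 4 labelled daf-2; the other genes stay below 50 CPM in all 8.

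The other members did not share this contrast. hmit-1.2 had 178 reads in the library labelled aak(0) and 337 in the one labelled daf-2, a CPM ratio of 1.28 (95% binomial interval 1.06 to 1.54). hmit-1.3 had 381 and 763 reads, a ratio of 1.21 (1.07 to 1.37). Both ratios turned below 1, to 0.541 and 0.511, with ribosomal RNA left out of the totals. They were 1.16 and 1.09 with argk-1 left out as well, and 1.09 and 1.03 with median-of-ratios scaling. argk-1 alone took 37.3% of gene reads in the library labelled aak(0). The direction of hmit-1.2 and hmit-1.3 thus depends on the scaling, and these libraries do not fix it. gpdh-2 had 600 and 2376 reads and a CPM ratio of 0.611 (0.558 to 0.668), below 1 under each of 4 scalings and down to 0.259, where the median ratio over 9482 genes with reads in both libraries moved from 1.17 to 0.495. gpdh-1 had 1 and 0 reads, under the floor on both sides, and no ratio is given. Large differences were common in the pair: 59.2% of 18987 genes with a mean of at least 1 CPM were at least 2-fold higher in aak(0) and 15.1% at least 2-fold lower, and of the 4 members above that minimum only hmit-1.1 was past 2-fold on this scale of library totals. Of those 18987 genes 8496 (44.7%) had 0 reads in the library labelled daf-2, as hmit-1.1 did, and 1009 had 0 in its partner. Among the 9482 with reads in both, which include hmit-1.2, hmit-1.3 and gpdh-2, 31.3% were at least 2-fold higher in the library labelled aak(0) and 21.0% at least 2-fold lower.

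Genes beside hmit-1.1 were recovered at far lower levels. Within 20 kb lay 9 other annotated genes, 4 of them at least partly protein-coding, and their highest value was the 8.55 FPKM of hmit-1.2 in aak(0) replicate 1. In the endogenous library labelled aak(0) the flanking slo-1, a potassium channel gene 8587 bases away, had 425 reads and ints-5, 10048 bases away on the other side, had 486. These 2 neighbours had 742 and 1513 reads in the library labelled daf-2, where hmit-1.1 had 0. Like hmit-1.1, Y51A2D.1 (73 reads) and the pseudogene Y51A2D.23 (104 reads) had reads in the library labelled aak(0) and 0 in the other. None of the neighbours overlaps hmit-1.1. The other members do share ground: hmit-1.2 with 3 short noncoding genes, hmit-1.3 with mrpl-35, gpdh-1 with gadr-6 and gpdh-2 with K11H3.3. No source used here says whether the counting used strand, so reads in these overlaps cannot be assigned.

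**Figure D4:**
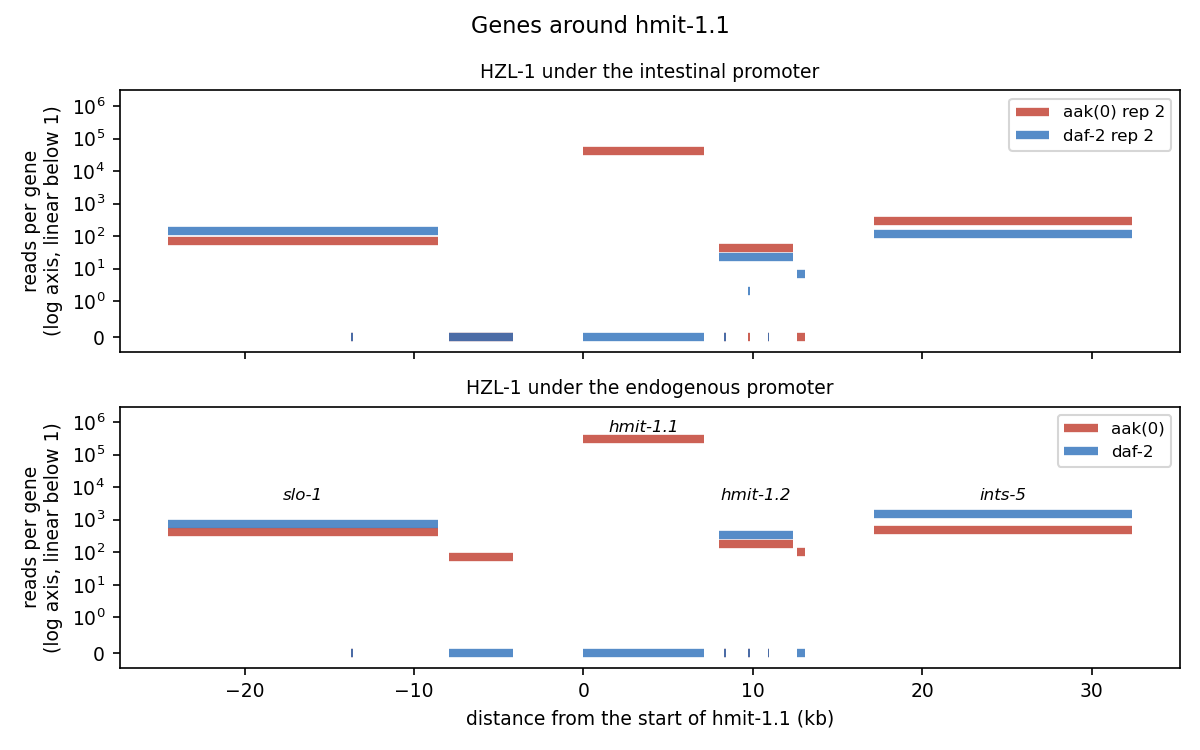
Reads per gene (log axis, linear below 1) around hmit-1.1; each bar spans a gene by its distance in kb from the start of hmit-1.1, in red for aak(0) and blue for daf-2, with replicate 2 of the intestinal set above and the endogenous pair below. hmit-1.1 has 40018 and 303233 reads in aak(0) and 0 in daf-2, while slo-1, hmit-1.2 and ints-5 have reads in both genotypes.

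Likeness to hmit-1.1 was measured as Pearson r of log2(FPKM + 1) over the 7 intestinal libraries, which share depth and detection differences, so it is a description. Among 9648 other tested genes the arginine kinase gene argk-1 came first at r = 0.97. The next genes with a symbol were ymel-1 (0.90), a mitochondrial protease gene, znf-706 (0.88), atp-6 (0.83), a mitochondrially encoded ATP synthase subunit, and sahd-1 (0.83). Their levels were far less split: ymel-1 gave 9.51, 7.32 and 7.53 FPKM for aak(0) and 3.04, 2.85 and 2.63 for daf-2. In the endogenous pair argk-1 had 8965110 reads in the library labelled aak(0) and 2 in the other. In the same order ymel-1 had 1235 and 2242 and atp-6 had 6858 and 13758. Of these 5 genes only argk-1 had fewer raw reads in the library labelled daf-2. That library was deeper (58132094 against 24035823 gene reads), so raw reads do not give the direction of the others relative to library totals.

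The other members ranked far down that order. Their r with hmit-1.1 was 0.41 for gpdh-2 (place 2309), 0.22 for hmit-1.2 (place 4414), 0.15 for hmit-1.3 (place 5191) and -0.49 for gpdh-1 (place 9388 of 9648). Between themselves, hmit-1.3 and gpdh-2 were the pair most alike (r = 0.92), both high in aak(0) replicates 2 and 3, daf-2 replicate 2 and GFP, the 4 libraries with the most genes detected. The genes most like the other members were, for hmit-1.2, the histone genes his-19, his-21 and his-51 (r = 1.00 each), all at 16.13 FPKM in aak(0) replicate 1, for hmit-1.3 lron-3, ads-1 and hsp-16.2 (0.99 each), for gpdh-1 dpy-18 (1.00), prhg-1 (0.99) and nhr-88 (0.98), and for gpdh-2 nhr-70 (0.98), gmap-1 and flp-18 (0.97 each). The histone copies are nearly identical and were listed with equal values, so these values are uncertain.

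Beyond the 5 genes, 59 others with roles in osmolytes and osmotic responses were listed, 58 were matched and 30 entered the fit. In aak(0) against daf-2, 0 of these 30 passed limma in either direction and 0 had an unadjusted p under 0.05. On recovered reads 0 of 37 passed edgeR and 0 of 57 passed DESeq2. The 57 are genes fitted, and any that DESeq2 left without an adjusted p could not pass. The median log2 difference of the 30 from daf-2 was 0.57, beside 0.59 over all tested genes. Against GFP 0 of the 30 passed limma and 0 had an unadjusted p under 0.05, with medians of -0.43 in aak(0) and -0.99 in daf-2, beside -0.79 and -1.28 over all tested genes. All aak(0) libraries lay above all daf-2 libraries for 2 of the 30, gpdh-3 and fgt-1, where 10% of tested genes had that order, and for 0 of the 30 they all lay below.

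In inositol metabolism and signalling, 0 of 7 tested genes passed. inos-1, which encodes the synthase that makes inositol phosphate from glucose 6-phosphate, gave 4.21, 14.15 and 17.85 FPKM for aak(0), 10.14, 8.34 and 4.62 for daf-2 and 24.07 for GFP. Its log2 difference was 0.45 ± 0.69 (SE; limma adjusted p = 0.857), with overlapping groups. egl-8, a phospholipase C gene, was listed at 15.40, 6.75 and 6.56 against 4.07, 8.38 and 5.74 FPKM (limma adjusted p = 0.788). In the endogenous pair inos-1 had 1587 and 4604 reads, or 66.0 and 79.2 CPM in the libraries labelled aak(0) and daf-2.

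Glycerol metabolism held 2 tested genes. gpdh-3 (named T25G3.4 in the files), the mitochondrial glycerol-3-phosphate dehydrogenase gene, gave 15.65, 14.06 and 14.16 FPKM for aak(0), 7.70, 7.53 and 12.24 for daf-2 and 18.25 for GFP. Its groups did not overlap, but the log2 difference of 0.65 ± 0.48 (SE; limma adjusted p = 0.717) did not pass. It was unlike hmit-1.1 in the GFP library, which held more gpdh-3 than any HZL-1 library. pgph-2, of the phosphoglycolate phosphatase family, was listed at 0, 2.14 and 2.74 against 0, 3.45 and 5.80 FPKM (limma adjusted p = 0.912).

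Water and sugar transporters did not pass either, with 0 of 3 and 0 of 3 tested genes. The aquaporin gene aqp-2 gave 83.07, 28.95 and 30.15 FPKM for aak(0), 1.76, 28.11 and 47.96 for daf-2 and 45.87 for GFP (log2 difference 1.44 ± 1.15, limma adjusted p = 0.717). The other named aquaporin, aqp-11, was at 10.33 FPKM in daf-2 replicate 1 and at most 1.47 elsewhere. The SWEET-family genes swt-1 and swt-3 had aak(0) values of 52.82, 15.68 and 16.13 FPKM and of 23.36, 6.85 and 4.60 FPKM, and daf-2 values of 0, 19.39 and 17.73 and of 0, 22.15 and 39.03 (limma adjusted p of 0.717 and 0.998). The glucose transporter gene fgt-1, chosen after its values were seen, was at 12.42, 4.37 and 5.28 FPKM against 0, 2.6 and 3.29, and at 9.73 with GFP.

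Trehalose, a disaccharide that protects dauers from drying, is handled by a further list, in which 0 of 7 tested genes passed. The synthase gene tps-2 gave 57.09, 7.76 and 10.97 FPKM for aak(0), 4.89, 7.77 and 3.59 for daf-2 and 12.19 for GFP (limma adjusted p = 0.717). lea-1, which encodes a protein of the late-embryogenesis-abundant type known from desiccation tolerance, was close between the intestinal groups, at 48.22 to 55.93 FPKM in aak(0), 45.14 to 51.15 in daf-2 and 72.05 with GFP (log2 difference 0.10 ± 0.39, limma adjusted p = 0.955). In the endogenous pair it was lower in the library labelled aak(0), at 125 CPM (3005 reads) against 382 CPM (22209 reads). Other genes of the related lists went both ways in that pair. For the libraries labelled aak(0) and daf-2, itr-1 of the inositol list was at 54.4 and 21.5 CPM, and aqp-3 had 316 and 0 reads. In the other direction, osm-11 was at 61.8 and 222 CPM, and aqp-5 had 0 and 283 reads. The direction of the lists as a whole was not tested there.

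Among genes that control the osmotic response, 0 of 8 tested genes passed. osm-11, which encodes a secreted protein whose loss makes worms resistant to hypertonic stress, gave 98.47, 70.49 and 57.71 FPKM for aak(0), 6.05, 92.85 and 126.45 for daf-2 and 98.50 for GFP (limma adjusted p = 0.846). wnk-1, a kinase gene of cell volume control, was at 13, 18.81 and 18.46 FPKM against 39.63, 7.94 and 22.76 (limma adjusted p = 0.938). The low daf-2 values of aqp-2, osm-11, swt-1 and swt-3 were all in replicate 1, one of the 3 libraries with few genes detected.

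Markers of the tissues that could carry these transcripts were summed per library. The 10 intestine markers summed to 28.7 to 42.0 FPKM in aak(0), 27.5 to 48.4 in daf-2 and 50.04 with GFP, so the groups overlapped, and 3, 9 and 10 of them were above 0 in aak(0) against 5, 8 and 4 in daf-2. The intestinal factor gene elt-2 was at 0 in aak(0) replicate 1 and daf-2 replicates 1 and 3 and at most 0.96 FPKM elsewhere. The sum of the hypodermis markers (7 genes) did not overlap, at 36.6 to 39.9 FPKM in aak(0) and 8.82 to 28.7 in daf-2. Of all single genes tested, 10% had that order. The GFP library, low in hmit-1.1, held 36.9. In aak(0) 3, 7 and 7 of these markers were above 0, against 3 in each daf-2 library. As single genes, rol-6 (17.06 to 26.13 against 2.03 to 17.87 FPKM) and lin-26 (6.89 to 19.46 against 2.35 to 11.99) overlapped. In the endogenous pair the hypodermis markers summed to 282 CPM in the library labelled aak(0) and 72.5 in the one labelled daf-2. Single genes went both ways there: elt-3 had 9 and 674 reads and dpy-7 had 0 and 347. Going with the sum were rol-6 (5077 and 2871), lin-26 (874 and 320), bli-1 (411 and 0), sqt-3 (235 and 0) and col-19 (162 and 0). The sums overlapped for body wall muscle (58.7 to 278 against 45.3 to 141), neurons (74.8 to 165 against 68.0 to 136) and germline (47.3 to 159 against 9.4 to 108). They also did for the excretory canal (7.00 to 13.1 against 3.47 to 11.99) and glia (0.29 to 0.86 against 0.34 to 0.65), where mir-228 was at 0 in all 7 libraries. In the endogenous pair glia markers (83.0 against 25.4 CPM), excretory canal markers (76.1 against 40.65) and intestine markers (239 against 211) also summed higher in the library labelled aak(0), and those of muscle (589 against 953), neurons (351 against 778) and germline (207 against 503) lower. The part of these markers in the level of hmit-1.1 was not tested.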

How the data were processed

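RNA from anti-GFP immunoprecipitates of formaldehyde-fixed dauer larvae was selected for polyadenylated molecules and sequenced in 9 libraries. The tools named, per the submitters' processing notes, are STAR 2.7.1a, Trimmomatic 0.35, DESeq2 1.30.1 and RSEM, with build WBcel235 and no settings. FPKM values were deposited by the authors for the 7 libraries of the intestinal set. They also deposited a signal per gene for its 6 HZL-1 libraries, reads divided by 1 size factor per library, in which 100% of values were whole multiples of the smallest one (tolerance 0.01), so whole reads were recovered. The same deposited table holds the authors' log2 fold changes and p-values. Raw counts per gene were deposited for the endogenous pair, per the file headers, and entries naming no gene (62.14% and 29.63% of all reads in aak(0) and daf-2) were left out.

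limma 3.58.1 (R 4.3.3) was fitted with a variance trend to log2(FPKM + 1) of the 7 libraries, 1 mean per group, over 9649 genes whose mean reached 1 FPKM, with Benjamini-Hochberg adjustment over all of them and a threshold of 0.05. The pseudocount understates changes of low genes. edgeR 4.0.16 (quasi-likelihood) and DESeq2 1.42.0 on recovered reads, other pseudocounts, filters and scalings, and single libraries left out were alternatives. For the endogenous pair the plan named no unit, and CPM ratios with exact binomial 95% intervals were used; 3 reads stood in for a count of 0 to give a bound. All 3 tests were checked on simulated counts of well-read genes, for aak(0) against daf-2 only. The simulated spread was set in advance, with no loss of genes in single libraries. The check therefore does not show how well the tests find changes in these data. Replicate numbers did not pair the libraries. Symbols are those of the files or of NCBI RefSeq for WBcel235 where a sequence name stood. Named genes were the 5 members, the 2 most abundant of each related list with any that passed, and the 5 (for other members 3) most alike. The members and lists were chosen with earlier results of these data known.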

Additional observations from a re-analysis of the deposited data

How the results depend on the processing

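Counting each gene in each alternative fit and contrast gave 199 values for the 4 genes other than hmit-1.1. Of these 0 passed the threshold, and in 22 the sign turned. hmit-1.3 had no p with DESeq2 and could not pass there. The values are not independent: leaving out a daf-2 library does not change the difference of aak(0) from GFP. For aak(0) against daf-2 the log2 difference of hmit-1.2 was -0.066 with quantile normalization and -0.0093 to 1.39 with single libraries left out, lowest without aak(0) replicate 1. That of hmit-1.3 was -0.59 with quantile normalization, -0.035 to 0.81 with single libraries left out (-0.035 without daf-2 replicate 1, -0.020 without aak(0) replicate 2), -0.33 without the 3 libraries with the fewest genes (chosen after seeing the data), -0.47 with edgeR, -0.60 with edgeR and no filter, and -0.48 with DESeq2. For aak(0) against GFP hmit-1.2 was at -0.17 with a pseudocount of 0.1 and -0.74 without the 3 libraries, and at -0.74 to 0.66 with single libraries left out (-0.74 without aak(0) replicate 1). With quantile normalization hmit-1.3, gpdh-1 and gpdh-2 were at 0.21, 0.17 and 0.11, and gpdh-2 at 0.018 with median-of-ratios scaling. For daf-2 against GFP quantile normalization gave 0.77 for hmit-1.2 and 0.80 for hmit-1.3, the fit without the 3 libraries 0.21 for hmit-1.3, and median-of-ratios scaling 0.0050 for gpdh-2. There gpdh-1 was at -0.080 to 1.37 with single libraries left out, lowest without daf-2 replicate 3, and at -0.37 with the replicate block. Deviations of libraries with the same number correlated at -0.11, -0.05 and -0.10, so the numbers were not taken as pairs. The replicate block gave 0 calls in each of the 3 contrasts with limma, and 0 with edgeR for aak(0) against daf-2, the contrast edgeR was run on. Of the genes of the related lists, dpy-10 alone was called, below GFP in both contrasts without a filter (1 in each).

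Counts of called genes over the whole table moved widely. For aak(0) against daf-2, 1 call became 0 with a pseudocount of 10, no filter, quantile normalization or without the 3 libraries, 2 with a minimum mean of 5 FPKM, TPM or edgeR, 10 with edgeR and no filter and 5 with DESeq2, and 0 to 545 with single libraries left out, 545 without aak(0) replicate 1. For aak(0) and for daf-2 against GFP, 103 calls each became 2058 and 2348 without a filter. They became 0 with a minimum mean of 5 FPKM, quantile normalization, no variance trend or without the 3 libraries, and lay at 108 to 158 and 106 to 433 with single libraries left out. The causes were not tested. The ratio of mean CPM of hmit-1.1 ranged from 299 to 8893 with single libraries left out, the highest without daf-2 replicate 3 being a bound. In the endogenous pair its bound was 103488 without ribosomal RNA in the totals, where hmit-1.2 (0.541) and hmit-1.3 (0.511) turned below 1. Under the other scalings both of these stayed above 1. No read counts of the GFP library were used, so its depth is not known, and gpdh-1 lay under the floor in the endogenous pair.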
